A study of Mus musculus with 2 samples.

Results

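The platelet-derived growth factor (PDGF) family was followed in the embryonic mouse limb through its 4 ligand genes, Pdgfa, Pdgfb, Pdgfc and Pdgfd, and its 2 receptor genes, Pdgfra and Pdgfrb. The 6 genes were taken by name, not by their values, from 43346 Ensembl genes quantified by total RNA-seq. Limbs of B6NCrl mice, a C57BL/6N strain, were collected at embryonic day 12.5 from embryos of both sexes. There was 1 group with 2 biological replicates, a pool of 88 embryos (replicate 1) and a pool of 68 embryos (replicate 2). No genotype, treatment or time point was compared, so the comparisons possible are between genes, between transcripts of a gene and between the replicates. Forelimbs and hindlimbs are not told apart by the labels, and each library was made from 10 ng of RNA longer than 200 nt.

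PDGF ligands are secreted dimers of disulfide-linked chains that bind and pair receptor tyrosine kinases on the cell surface. PDGF-A and PDGF-C act mainly through PDGFR-alpha, PDGF-B binds both receptors, and PDGF-D acts mainly through PDGFR-beta. In the embryo PDGFR-alpha is known as a receptor of mesenchymal cells, and PDGF-B from endothelium with PDGFR-beta on mural cells (pericytes and vascular smooth muscle) is known for covering new vessels.

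The libraries held 29810026 and 29938721 expected counts in replicates 1 and 2, of which synthetic spike-in RNAs took 3.28% and 2.30%. All 12 limb mesenchyme markers and all 8 cartilage markers examined were detected, which here means a TPM (length-scaled transcript abundance) of at least 1 in both libraries. All 9 endothelial markers were detected too. The tissue is a mixture, so fewer cells of a type and less RNA per cell cannot be told apart in any value below.

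All 6 PDGF genes were detected, where 33.5% of all Ensembl genes and 59.2% of protein-coding genes were. TPM is scaled by transcript length and is therefore the scale on which levels of different genes are compared. From highest to lowest mean TPM the order was Pdgfra, Pdgfc, Pdgfrb, Pdgfa, Pdgfd and Pdgfb. In each of the 5 neighbouring pairs of this order, the lower library of the higher gene lay above the higher library of the lower gene. With 2 libraries the smallest p a sign-flip test can give is 0.5, so the order is described without a test. The order depends on which transcripts of Pdgfc are counted. With only transcripts annotated protein coding, a setting added after the transcript shares were seen, it was Pdgfra, Pdgfrb, Pdgfa, Pdgfc, Pdgfd and Pdgfb.

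**Figure D1:**
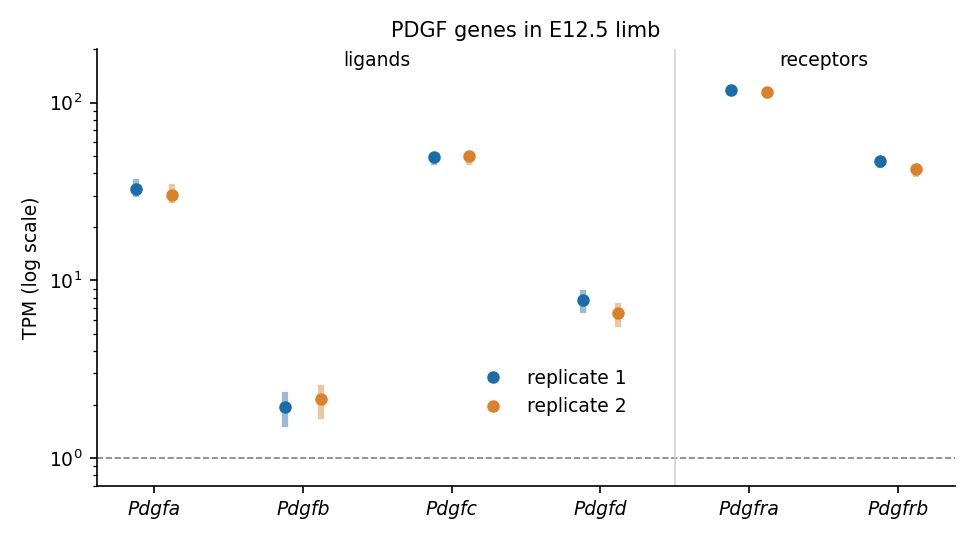
TPM (log scale) of the 6 PDGF genes, 1 point per library, with the deposited intervals as bars. Pdgfra lies highest at 118.58 and 115.16 TPM and Pdgfb lowest at 1.95 and 2.14. The points of neighbours in the order do not overlap, but in replicate 1 the bars of Pdgfc and Pdgfrb do.

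Among the ligands, Pdgfc was highest, at 49.49 TPM in replicate 1 and 49.98 in replicate 2 (mean 49.73 ± 0.35, SD, n = 2). The 2 libraries differed by less than 1 TPM. Pdgfc encodes a chain that is secreted with a CUB domain, which must be cut off before the ligand can act. Its gene lies at chr3:81036416-81214040 on the plus strand (mm10), and it ranked 3619 by mean TPM.

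Pdgfa, which encodes the A chain, was at 32.54 TPM in replicate 1 and 30.3 in replicate 2 (mean 31.42 ± 1.58, SD, n = 2). Replicate 1 was the higher, and the intervals the authors deposited for the gene overlapped, at 30.60 to 35.66 and 28.22 to 33.50. The gene lies at chr5:138976014-138997370 on the minus strand. Pdgfc stood above Pdgfa in both libraries, by a log2 ratio of Pdgfa over Pdgfc of -0.66 ± 0.08 (SD, n = 2). This reversed to 1.68 with protein-coding transcripts only, and was -1.36 on expected counts without length scaling.

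Pdgfd, whose chain also carries a CUB domain, was at 7.8 TPM in replicate 1 and 6.56 in replicate 2 (mean 7.18 ± 0.88, SD, n = 2). Replicate 1 was the higher and the deposited intervals of 6.806 to 8.477 and 5.704 to 7.186 overlapped. The gene lies at chr9:6168584-6378850 on the plus strand. Pdgfc exceeded Pdgfd by 2.78 ± 0.18 on the log2 scale, or 6.87-fold. With protein-coding transcripts only this was 0.41, or 1.33-fold.

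Pdgfb, which encodes the B chain known from endothelial cells and platelets, was the lowest member at 1.95 TPM in replicate 1 and 2.14 in replicate 2 (mean 2.05 ± 0.13, SD, n = 2). These levels rest on 103 and 114 expected counts, the fewest of the 6 genes, and the libraries overlap within their deposited intervals. The gene lies at chr15:79995874-80014977 on the minus strand. Pdgfa exceeded Pdgfb by 3.88 ± 0.16 on the log2 scale, or 14.7-fold (9.55-fold without length scaling). Among markers of cells known to make PDGF-B, all 9 endothelial genes were detected, with a summed level of 237.4 and 233.9 TPM. Of 7 megakaryocyte and platelet genes 6 were detected, and Pf4, a platelet chemokine, had a mean of 42.5 TPM. Their part in the level of Pdgfb was not tested.

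By share of summed ligand TPM, Pdgfc took 53.9% and 56.2% in replicates 1 and 2, and Pdgfa 35.5% and 34.1%. Pdgfd took 8.50% and 7.37%, and Pdgfb 2.12% and 2.41%. With protein-coding transcripts only the leading ligand was Pdgfa, at a mean of 62.1% over the 2 libraries, and Pdgfc took a mean of 19.3%. The ligands that act mainly through PDGFR-alpha, Pdgfa and Pdgfc, together reached 82.03 and 80.28 TPM. Pdgfb and Pdgfd together reached 9.75 and 8.70 TPM, 8.73-fold less (4.34-fold less with protein-coding transcripts only).

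Of the receptors, Pdgfra was at 118.58 TPM in replicate 1 and 115.16 in replicate 2 (mean 116.9 ± 2.42, SD, n = 2), the highest level in the family. It ranked 1471 among all genes and rested on 14341 and 14023 expected counts. The deposited intervals, which belong to a separate posterior mean estimate and so need not contain the TPM, were 113.1 to 116.9 and 109.9 to 113.6 and overlapped. The gene lies at chr5:75152292-75198215 on the plus strand.

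Pdgfrb was at 47.3 TPM in replicate 1 and 42.28 in replicate 2 (mean 44.79 ± 3.55, SD, n = 2). Replicate 1 was the higher and the deposited intervals, 44.58 to 47.20 and 39.82 to 42.29, did not overlap. The gene lies at chr18:61045150-61085061 on the plus strand. Pdgfra exceeded Pdgfrb by 1.38 ± 0.08 on the log2 scale (2.61-fold), and took 71.5% and 73.1% of the summed receptor TPM.

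Pdgfrb and Pdgfc were the closest neighbours in level. Their log2 ratio, Pdgfc over Pdgfrb, was 0.07 in replicate 1 and 0.24 in replicate 2 (mean 0.15 ± 0.12, SD, n = 2). In replicate 1 the deposited intervals of Pdgfc (46.20 to 49.93) and Pdgfrb (44.58 to 47.20) overlapped. By TPM Pdgfc was the higher in both libraries, by a mean of 1.11-fold. The direction turned with protein-coding transcripts only, where Pdgfrb was 4.65-fold above Pdgfc, and without length scaling, where it was 1.67-fold above. The widest step between neighbours in TPM over all transcripts was from Pdgfa to Pdgfd, at 4.34-fold. Summed, the ligands reached 91.78 and 88.98 TPM and the receptors 165.9 and 157.4, so receptor transcripts were 1.79-fold above ligand transcripts. The fold was 3.26 with protein-coding transcripts only and 4.47 without length scaling.

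Transcripts of a gene were compared by their share of the gene's TPM, as the authors estimated it. The sequences shown here are those at which the transcripts of Pdgfa, Pdgfc and Pdgfd part, since these decide which chain each transcript encodes. They were read from the GENCODE M21 transcripts (GRCm38, the mm10 assembly) in the direction of the gene.

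Pdgfa makes a long chain, whose end carries a basic stretch known to hold the ligand at the cell surface and matrix, and a short chain without it. The lines give 30 shared coding bases in lower case and, in capitals, the coding end particular to each form, at chr5:138978635-138978690 for the long form and chr5:138977217-138977227 for the short form, both on the minus strand.
Pdgfa long form: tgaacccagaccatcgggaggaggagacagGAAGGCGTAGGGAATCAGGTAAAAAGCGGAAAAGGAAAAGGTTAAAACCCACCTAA
Pdgfa short form: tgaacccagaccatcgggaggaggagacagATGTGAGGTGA

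The short form led Pdgfa, with 95.36% of TPM in replicate 1 and 95.31% in replicate 2 over its protein-coding transcripts. Most of this was Pdgfa-202, at 24.11 and 22.48 TPM, followed by Pdgfa-204 at 6.29 and 5.66. The long form, Pdgfa-201, had 3.84% and 1.34%, or 1.25 and 0.4 TPM. Replicate 1 was the higher, yet the long form rested on 33.80 and 11.03 expected counts and its deposited intervals overlapped, at 0.3516 to 2.618 and 0.02102 to 1.572 TPM.

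In Pdgfc the leading transcript was not the annotated protein-coding one. Pdgfc-202, annotated as a target of nonsense-mediated decay (removal of RNAs with an early stop), held 78.62% and 80.02% of the gene's TPM. It and Pdgfc-203 contain an exon of 59 nt that Pdgfc-201 lacks, at chr3:81131018-81131076 on the plus strand. That exon is not a whole number of codons and holds the annotated stop, here in capitals.
Pdgfc inserted exon: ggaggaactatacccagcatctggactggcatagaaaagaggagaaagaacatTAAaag

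The protein-coding transcript of Pdgfc, Pdgfc-201, was at 10.05 TPM in replicate 1 and 9.05 in replicate 2 (mean 9.55 ± 0.71, SD, n = 2), or 20.3% and 18.12% of the gene. Pdgfc-202 stood at 38.91 and 39.99 TPM, above it in both libraries. The estimate is not a count of reads over the inserted exon. Pdgfc-201 also has a longer first exon, 1139 against 383 nt in Pdgfc-202, and 762 bases found in no other quantified transcript of the gene. Low coverage of that first exon and use of the inserted exon cannot be told apart in the deposited values. This share is what moves Pdgfc from the second to the fourth place in the order when only protein-coding transcripts are counted. For comparison, 9319 detected genes had more than 1 transcript, with at least 1 of them annotated protein coding. Of these genes, 150 (1.61%) had a leading transcript annotated for nonsense-mediated decay in both libraries.

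Pdgfd transcripts differ by 18 bases, a whole number of codons, at chr9:6288472-6288489 on the plus strand. The insertion is in capitals between the shared bases.
Pdgfd with insertion: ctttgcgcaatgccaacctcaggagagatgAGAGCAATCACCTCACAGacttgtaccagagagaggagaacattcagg
Pdgfd without insertion: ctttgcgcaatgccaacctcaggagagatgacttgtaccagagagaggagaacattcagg

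The form without the insertion, Pdgfd-201, led with 72.93% and 81.78% of TPM, or 5.69 and 5.36 TPM. The form with it, Pdgfd-202, was at 2.11 and 1.19 TPM from 67.11 and 38.23 expected counts. Pdgfd-201 led in both libraries. In GENCODE M21 it also has 1354 bases of its own, mostly at its 3′ end, so the insertion is not the only feature that sets the share. That model is 3131 nt long, and the transcript the authors quantified was 3052 nt.

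Pdgfra-201 held 87.63% and 91.18% of Pdgfra TPM, at 103.92 and 105.01 TPM. Pdgfra-202 was at 14.66 and 10.16 TPM, and both have a coding length of 3267 nt. All of Pdgfrb was assigned to Pdgfrb-201, with Pdgfrb-202 listed at 0, and Pdgfb had 1 quantified transcript. Of the transcripts in the newer annotation, 2 of 9 were quantified for Pdgfra, 1 of 4 for Pdgfb and 2 of 3 for Pdgfd.

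**Figure D2:**
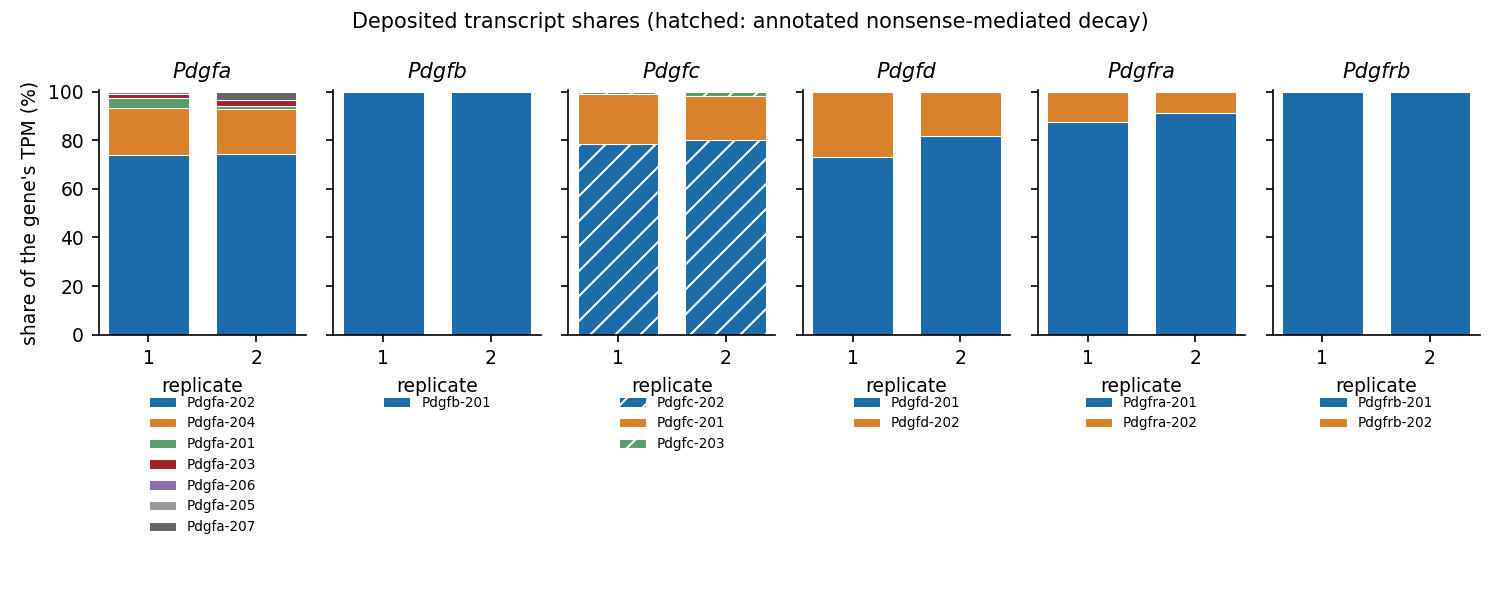
Share of each gene's TPM (percent) by transcript, stacked for each library, with nonsense-mediated decay transcripts hatched. The nonsense-mediated decay transcript Pdgfc-202 holds 78.62% and 80.02% of Pdgfc, and Pdgfa-202 leads Pdgfa.

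**Figure D3:**
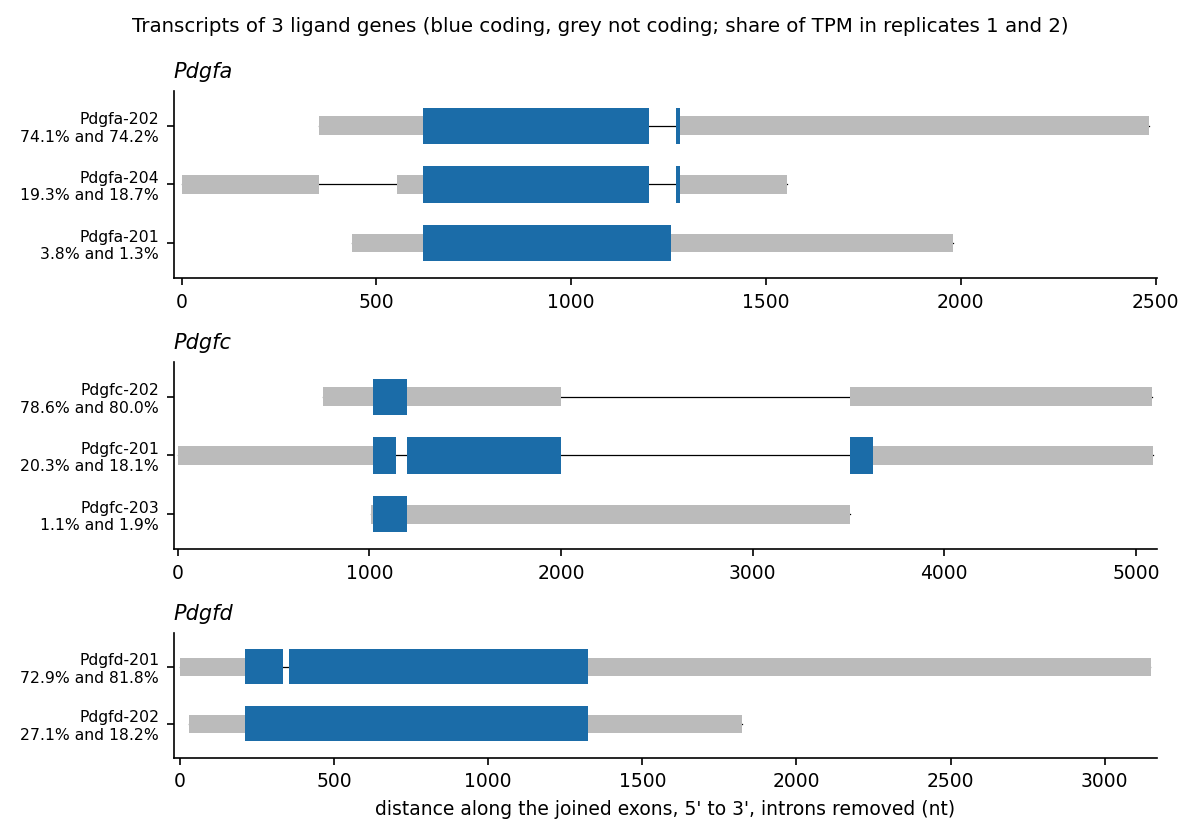
Transcripts of Pdgfa, Pdgfc and Pdgfd along the joined exons of each gene, 5′ to 3′ in nt with introns removed, coding parts in blue and other exon parts in grey, with each transcript's share of TPM in both libraries. Among the features that separate the forms are the 59 nt exon of Pdgfc-202, where its coding part ends, and the 18 base insertion of Pdgfd-202.

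To compare the replicates, each gene was put through an exact two-sided binomial test on expected counts, scaled by TMM (a scaling to the bulk of genes) and adjusted over all 18580 genes tested. The test covers counting error only, so a low p says that the libraries differ, not that a condition does. A call needed a difference of 2-fold or more with an adjusted p below 0.05. By this rule 0 of 6 PDGF genes were called, where 1.7% of all genes tested were (0.969% higher and 0.727% lower in replicate 2). The binomial test gave 2 of 6 at an unadjusted p under 0.05, where 26.8% of all genes tested passed. At that limit edgeR's exact test, which adds a spread between libraries estimated from the data, gave 0 of 6, where 0.931% of all genes tested passed. That spread was estimated from the same 2 libraries, so it takes in the difference under test. A gene that does not pass there is therefore not shown to be alike in both libraries.

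With no fold limit 1 of 6 passed, Pdgfrb, where 16.1% of all genes tested did (7.86% higher and 8.25% lower in replicate 2). Pdgfrb was lower in replicate 2 by a log2 ratio of -0.16 (95% counting interval -0.22 to -0.10, binomial adjusted p = 2.715e-06), a fold of 1.12. In edgeR's exact test its adjusted p was 1.000, and 0 of all genes tested had an adjusted p under 0.05 there. Since the spread used there includes the difference under test, this result cannot decide whether Pdgfrb differed. The summed TPM of the mural marker list was also lower in replicate 2, at 201.7 and 184.0 in replicates 1 and 2. Of that list 7 of 13 genes were detected, 5 were lower at a binomial adjusted p under 0.05 and 0 higher. Acta2, a smooth muscle actin, led it at a mean of 117.8 TPM, so the sum rests mostly on that gene. The remaining genes of the list are named here after their values were seen. Detected were Des at a mean of 20.27 TPM, Notch3 at 18.41, Mcam at 13.97, Cspg4 at 8.615, Anpep at 6.065 and Tagln at 5.925. Rgs5, Kcnj8 and Abcc9, known pericyte genes, were under 1 TPM, as were Myh11 and Vtn, and Higd1b was listed at 0. The muscle marker list had summed TPM of 847.1 and 822.9 in replicates 1 and 2. The part of muscle in the levels of Acta2 and Des was not tested. A lower sum in replicate 2 was not particular to mural markers, since 9 of the 10 marker lists had one. Cartilage markers went from 1104.0 to 955.2 TPM, with 7 of 8 lower at a binomial adjusted p under 0.05 and 3 of them called at 2-fold. Macrophage markers went from 79.99 to 68.04 TPM, with 0 of 7 passing that test. The neuron list was the exception, at 45.63 and 60.38 TPM, with 5 of 6 higher and 3 of them called. The part of these markers in the Pdgfrb difference was not tested.

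The other receptor, Pdgfra, had a log2 ratio of -0.04 (counting interval -0.08 to -0.01, binomial adjusted p = 0.05788). This missed the threshold. It passed with library totals in place of TMM (binomial adjusted p = 0.01692) and with a minimum of 100 counts (0.04657). It missed with DESeq2 size factors (0.06825), posterior mean counts (0.05949) and no filter beyond 1 count (0.07497). Library totals with spike-ins and numeric identifiers (0.1137) and edgeR's exact test missed it too. Limb mesenchyme markers had summed TPM of 2292.8 and 2209.9, with log2 ratios from -0.451 to 0.109 and a median of -0.110. With no fold limit 6 of 12 were lower and 1 higher in replicate 2 at a binomial adjusted p under 0.05. Of all genes tested 8.25% were lower and 7.86% higher. The part of these markers in the Pdgfra value was not tested.

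None of the 4 ligands passed the binomial test at an adjusted p under 0.05. Pdgfd had the lowest log2 ratio, -0.19 (counting interval -0.41 to 0.02, binomial adjusted p = 0.2536). Pdgfa was at -0.12 (interval -0.25 to 0.01, binomial adjusted p = 0.2109). Pdgfb and Pdgfc were at 0.13 (interval -0.26 to 0.53) and 0.003 (interval -0.08 to 0.08). The interval of Pdgfb is the widest, and a difference within it was not detectable at this depth.

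**Figure D4:**
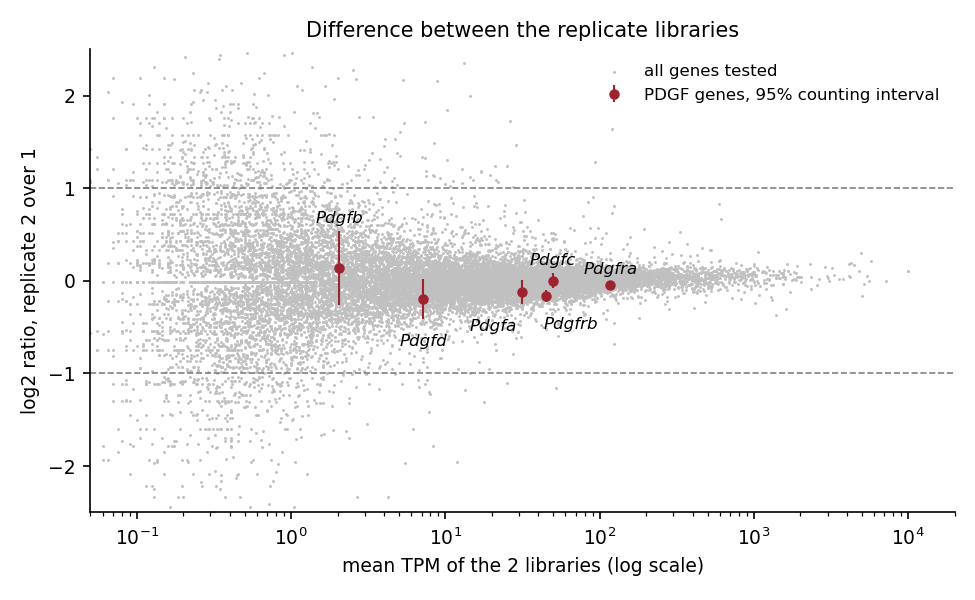
Log2 ratio of replicate 2 over replicate 1 against mean TPM (log scale) for the genes tested, with the 6 PDGF genes and their 95% counting intervals in red, and 131 genes outside the axes. The PDGF genes lie between -0.19 and 0.13, inside the dashed lines of a 2-fold difference.

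Genes that overlap a member on the genome were low. The antisense gene 6330403L08Rik at Pdgfa was at 0.37 and 0.46 TPM, and Gm16000 at Pdgfc was at 1.37 and 0.5 TPM. No source used here says whether counting used strand, so reads cannot be told apart where the genes overlap. Pdgfa-202 lies outside 6330403L08Rik, but that gene spans the first exon of Pdgfa-204 (354 nt) and the first 2 exons of Pdgfa-203 (261 and 198 nt). Gm16000 reaches only the end of the first exon of Pdgfc-201 and Pdgfc-202, but spans the whole first exon of Pdgfc-203 (131 nt). The partners held 37.49 and 46.77 expected counts at Pdgfa and 8.96 and 3.27 at Pdgfc, against 1075.51 and 998.23 for Pdgfa and 2650.04 and 2677.73 for Pdgfc. Ddi1, which overlaps Pdgfd, was at 0.04 TPM in both libraries.

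Of 86 genes that act with the family or belong to related ones, 80 were detected. For all Ensembl genes the share detected was 33.5%, and for protein-coding genes 59.2%. With no fold limit 20 of the 86 had a binomial adjusted p under 0.05, where 16.1% of all genes tested did. Among 12 genes of ligand processing and binding 11 were detected, with a median of 9.38 TPM. Sparc, a matrix protein that binds PDGF chains, was highest at a mean of 397.1 TPM, followed by the receptor Lrp1 at 75.34 and Thbs1 at 53.52. Lowest was Plau, a protease that can release PDGF-D, at 0.51 TPM. Plat, a protease that can release PDGF-C, was at 9.13 and 8.46 TPM, and Furin, which cleaves the A and B precursors, at 8.79 and 11.12. St14, another protease of the list, was at 6.61 and 5.94 TPM. Plat, Furin and St14 were named after their values were seen. In this list 1 gene was higher and 3 lower in replicate 2 at a binomial adjusted p under 0.05, and the median log2 ratio was -0.08 against -0.001 over all genes tested.

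Downstream of the receptors, 32 of 32 adaptors and effectors were detected, with a median of 31.92 TPM. The adaptor Crk had a mean of 112.0 TPM, and the PI3-kinase subunit Pik3cb was lowest at 1.14. Akt1, a kinase of the PI3-kinase branch, was at 55.07 TPM in replicate 1 and 131.29 in replicate 2, a log2 ratio of 1.29. It was the 1 gene of the 86 called at 2-fold, where 1.7% of all genes tested were. In all, 3 adaptors and effectors were higher and 4 lower in replicate 2 at a binomial adjusted p under 0.05, with a median log2 ratio of -0.015. The test uses counts without length scaling. Of the 4 lower genes, Grb2 was higher in replicate 2 by TPM, at 87.37 and 93.61 in replicates 1 and 2.

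All 15 negative regulators were detected, with a median of 16.34 TPM. The phosphatases Ptpn2, at a mean of 72.46 TPM, and Ptpn1, at 45.12, and the signalling inhibitor Spry2, at 59.02, were highest. The receptor phosphatase Ptprj was lowest at 1.14. In this list 1 gene was higher and 1 lower in replicate 2 at a binomial adjusted p under 0.05, with a median log2 ratio of -0.04. The serum response list mixes genes that growth factors such as PDGF are known to induce with the regulators Srf, Mrtfa and Mrtfb. Of its 12 genes 9 were detected, with Ier2 at a mean of 115.9 TPM, Tnc at 25.84, Myc at 25.77 and Egr2 lowest at 0.175. Among them 1 was higher and 3 were lower in replicate 2 by the binomial test on counts, with a median log2 ratio of -0.13. Of those 3, Mrtfa was higher in replicate 2 by TPM, at 16.34 and 18.59 in replicates 1 and 2.

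Relatives of the family were mostly below its receptors. All 8 genes of the VEGF family, which shares the cystine-knot fold with PDGF ligands, were detected, with a median of 8.88 TPM. Vegfb was highest at a mean of 45.41 TPM, followed by the receptor Kdr at 19.46 and Pgf at 11.95, and Flt4 was lowest at 3.20. Both PDGF receptors are class III receptor kinases. The list of this class held other receptors, their ligands and a receptor-like gene, and 5 of 7 genes were detected. Kit had a mean of 10.63 TPM, the receptor-like Pdgfrl 7.87, the Kit ligand Kitl 7.06 and Flt3 0.105. Flt3l was not analysed here. Pdgfra at 116.9 TPM and Pdgfrb at 44.79 were each above every gene of that list, receptor or ligand.

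**Figure D5:**
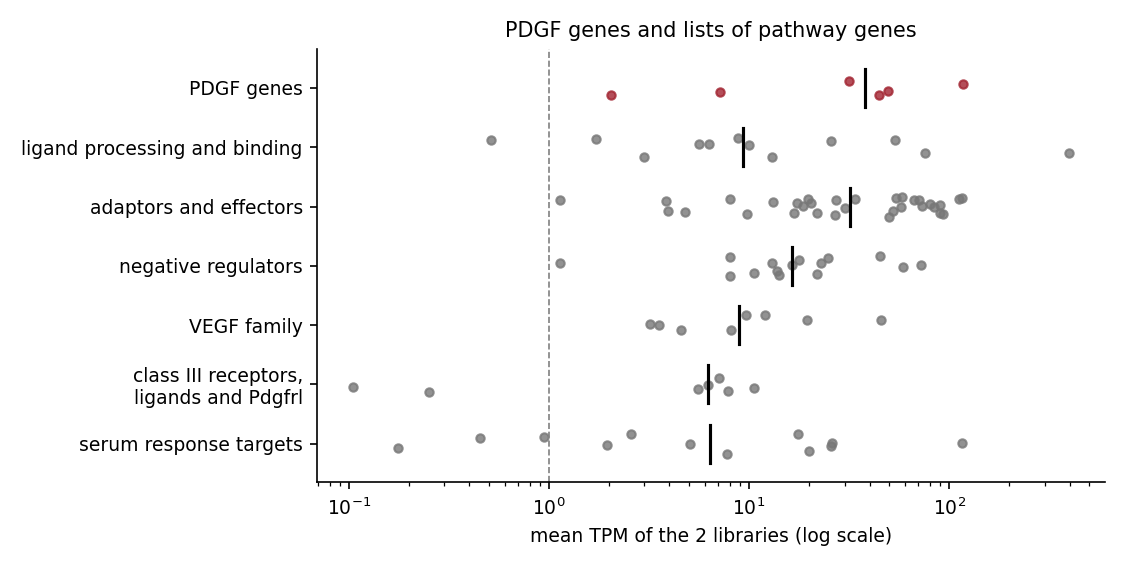
Mean TPM of the 2 libraries (log scale), 1 point per gene, for the PDGF genes in red and each pathway list in grey, with the median as a black bar and 1 TPM as a dashed line. Adaptors and effectors have a median of 31.92 TPM and the VEGF family 8.88.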

How the data were processed

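Per the file headers and labels, the authors deposited gene and transcript tables for mm10 with GENCODE M4. The deposited expected counts are estimated reads per feature, rounded here for tests. The deposited TPM and FPKM values are scaled by length and depth. The deposited transcript share is a percent of its gene. The authors' interval bounds of TPM, with a level no source used here states, were read as a score. No source used here names the aligner or says whether counting used strand. Names, exons and sequences came from GENCODE M21, and 42462 of the 43346 Ensembl genes matched. Spike-in rows and 26248 numeric identifiers, with 0.000121% and 0.000140% of counts, stayed out of library sizes.

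Members and lists were chosen with earlier results of these data known. Named were all members, the 3 highest genes and the lowest of each list, and any called. A gene that this rule names is not reported here. Genes with at least 10 summed counts were compared by an exact binomial test (scipy 1.17.1) with TMM factors of 1.003 and 0.997 from edgeR 4.0.16 and Benjamini-Hochberg adjustment. Ratios of TPM used a pseudocount of 0.1. With 1 group edgeR's quasi-likelihood test has no contrast, so its exact test, with a dispersion from an intercept-only design, was an alternative. The plan did not name the kind of dispersion. The default, tagwise, was run first, and trended and common were added after its counts were seen. Size factors of DESeq2 1.42.0 were another alternative. Scripts were tested on simulated data. Intervals cover counting error only.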

Additional observations from a re-analysis of the deposited data

How the results depend on the processing

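No paired analysis was possible because there was 1 group. The library comparison called 315 genes, against 73 with at least 100 counts, 2993 with no fold limit and 0 with edgeR's exact test and its default tagwise dispersion (173 at an unadjusted p under 0.05). Trended and common dispersions, added after those counts were seen, called 79 and 157. None of the 3 dispersions gave a PDGF gene an adjusted p under 0.05, which 0, 136 and 232 of all genes tested had with tagwise, trended and common. All 3 were estimated from the 2 libraries being compared, so these counts cannot show that the libraries are alike. Without length scaling the log2 ratio was 1.67 for Pdgfra over Pdgfrb, 3.26 for Pdgfa over Pdgfb, -1.36 for Pdgfa over Pdgfc and -2.16 for ligands over receptors. A pseudocount of 1 gave 3.41 for Pdgfa over Pdgfb, and posterior means gave -0.812 for ligands over receptors. With protein-coding transcripts only, added after the data were seen, Pdgfc over Pdgfd was 0.41, ligands over receptors -1.71 and Pdgfa over Pdgfc reversed to 1.68, which follows from leaving out Pdgfc-202 and Pdgfc-203. As a share of expected counts, Pdgfc-201 took 23.06% and Pdgfd-202 14.46%. Leaving out a replicate in turn gave 1.32 to 1.44 for Pdgfra over Pdgfrb, 3.76 to 3.99 for Pdgfa over Pdgfb, 2.65 to 2.91 for Pdgfc over Pdgfd, -0.720 to -0.603 for Pdgfa over Pdgfc and -0.853 to -0.823 for ligands over receptors. Shares ranged from 1.32% to 3.84% for the Pdgfa long form, which rests on few counts, 18.11% to 20.31% for Pdgfc-201, 18.17% to 27.05% for Pdgfd-202 and 87.64% to 91.18% for Pdgfra-201. The library comparison needs both libraries, so it has no value without either.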
